A study of Apis mellifera with 79 samples.

Results

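The 7 genes described here were read by RNA-seq from worker brains of the honey bee (Apis mellifera), out of 11525 genes listed in any of the 4 deposited tables. They are alpha-amylase (GB49854, LOC406114), a chymotrypsin inhibitor (GB50118, LOC725114), a pancreatic triacylglycerol lipase (GB43510, LOC551268) and GB42310, GB41339, GB43247 and GB55207, which no table used here names. They were chosen because the study lists them as lower in nurses near corn and because most of them varied together over single bees, so that comparison is given below as a description without a test. All 7 genes were present in the tables of field nurses and apiary foragers. The field forager table did not list GB42310 and the apiary nurse table did not list GB43510, which leaves 6 genes in each.

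The field libraries were pools of 5 brains of the same caste and colony from one site near neonicotinoid-treated corn (exposed) and one site away from farmland (unexposed). There were 5 exposed and 5 unexposed forager pools, and 5 exposed and 4 unexposed nurse pools. Site and exposure cannot be told apart in the field data. The apiary libraries were single brains taken on day 30 from 6 colonies in one apiary, 5 nurses and 5 foragers from each. Colonies C21, C23 and C28 (exposed) were fed pollen patties spiked with clothianidin at 4.9 ppb, lowered stepwise to 2.0 ppb, and colonies C25, C26 and C27 (unexposed) were fed patties without it. Foragers were bees returning with pollen and nurses were bees with the head in a cell of a larva, so caste stands for the task seen at collection. The hypopharyngeal gland and the ocelli had been taken off at dissection in all groups.

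Alpha-amylase splits starch, and in worker bees it is known as an enzyme of the hypopharyngeal gland that passes into honey. That paired head gland changes with the task of the worker, from proteins of brood food in nurses to enzymes that break down sugars and starch in foragers. Triacylglycerol lipases release fatty acids from fats, and chymotrypsin inhibitors block serine proteases. No role is known here for the other 4 genes.

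The libraries held 10.5 to 45.1 M (mega) reads in genes, with a median of 26.4 M. Values are log2 CPM as deposited (log2 of counts scaled to the same library total), in which a gene with no read stands near -3.75. For the tissue label, a pair of neural transcription factors was read whose gene IDs the study gives. Their levels can show neural RNA, but not whether a small amount of other tissue was present. Mblk-1 (GB50048), known from the mushroom bodies, ranged from 8.67 to 11.73 log2 CPM, and Foxp (GB40150) from 5.19 to 7.53 over the 79 libraries. Lists of gland, fat body and muscle genes could not be paired with the IDs of the files, so the share of such tissues in these libraries is not analysed here. In whole brains, fewer cells of a type and less RNA per cell cannot be told apart.

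In the field, 6 of the genes were higher in foragers than in nurses of the same colony in all but colony 1J7. The tables of the castes were normalized on their own, so the castes were set side by side as RPM, reads scaled like CPM but to the genes that all tables share, with no test. Alpha-amylase (GB49854) stood at 158.9 to 887.4 RPM in the 10 forager pools. In the 9 nurse pools it stood at 2.59 to 17.3 RPM in 7, and at 330.6 and 488.9 in the unexposed pools 2J7 and 1J7. Over the 9 colonies with both castes, the median ratio of foragers to nurses was 21.9 for GB49854 and 0.492 in 1J7. The highest ratio was 78.7, in the exposed colony 2J4.

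The other genes of these 6 repeated this order with smaller or larger steps. GB42310 was not listed for field foragers after the filter for low counts, so its castes were not compared there. In nurses it stood at 1.07 to 21.1 RPM in unexposed pools and 0.11 to 0.74 in exposed ones. The median ratio over field colonies was 4.42 for the chymotrypsin inhibitor GB50118, 9.86 for GB41339, 11 for GB43247 and 3.66 for GB55207. The lipase GB43510 had 0 reads in nurse pool 2J6, 3 to 9 reads in the exposed nurse pools and 48 to 963 reads in the forager pools. Nurse pool 1J7 was above its own forager pool for all 6 genes, with ratios of 0.397 for GB50118 to 0.821 for GB43247. No gene of the 6 was higher in foragers in all 9 colonies, where 5.65% of 10734 genes were. Without colonies 1J7 and 2J7, a choice made after the values were seen, all 6 were higher in foragers in the remaining 7 colonies. Leaving out 1J7, the only exception, fixes that count, so nothing is read from it beside the 7.56% of all genes.

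**Figure D1:**
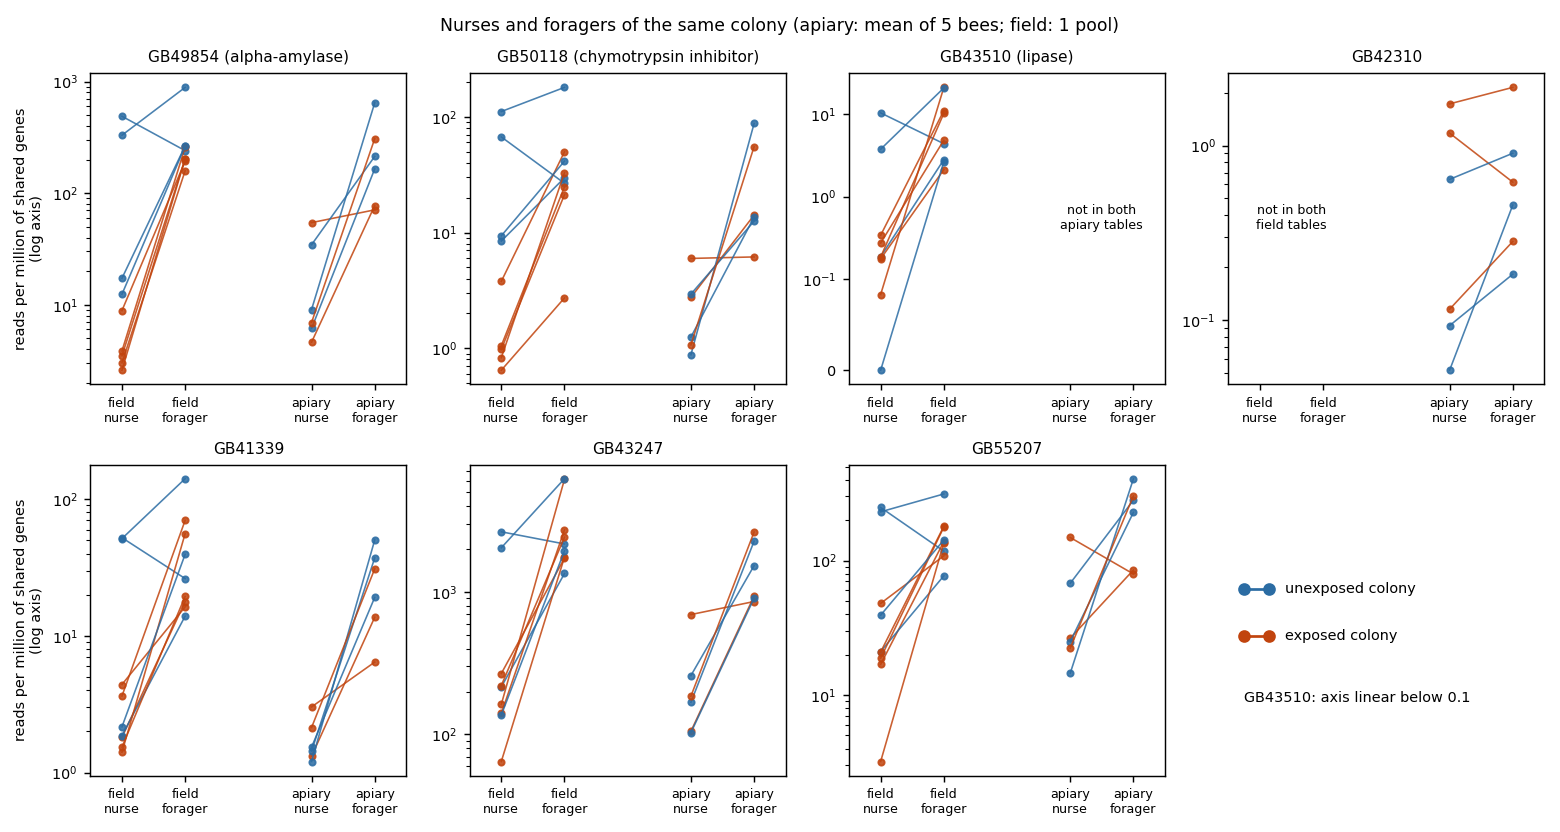
Each line joins the nurses and the foragers of one colony for one gene (blue unexposed, red exposed); the vertical axis is RPM over the genes shared by all 4 tables on a log scale, from 1 pool per point in the field and the mean of 5 bees per point in the apiary. For alpha-amylase, the nurse pools 1J7 and 2J7 start at 488.9 and 330.6 RPM while the other 7 nurse pools lie at 17.3 or below, and in the apiary the line of colony C23 is nearly flat.

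In the apiary, where the bees were sequenced one by one, foragers were again above nurses. The colony mean of foragers was higher in all 6 colonies for GB49854, GB50118, GB41339 and GB43247, and in 5 of 6 for GB55207 and GB42310. For 4 of 6 genes to be higher in every colony compares with 13.3% of the 11151 genes in both apiary tables. The median ratio of foragers to nurses was 21.9 for GB49854, as in the field, and 8.02 for GB50118, 13.5 for GB41339, 8.84 for GB43247, 6.65 for GB55207 and 1.69 for GB42310. Colony C23 had the lowest ratio for the first 5 of these, 1.3 for GB49854, 1.03 for GB50118, 2.13 for GB41339, 1.23 for GB43247 and 0.535 for GB55207.

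The low ratios of C23 went with 1 high nurse and with low foragers. The C23 foragers had the lowest colony mean of the 6 colonies for these 5 genes, such as 70.9 RPM of GB49854. Without the nurses C23-N4 and C27-N10, left out after their values were seen, the ratio of C23 was 11.6 for GB49854, 2.99 for GB50118, 5.21 for GB41339, 6.29 for GB43247 and 1.98 for GB55207, still the lowest of the 6 colonies in each. Bee C23-N4 had 7.97 log2 CPM of GB49854, and the other 4 nurses of C23 had 1.33, 1.59, 1.65 and 4.07. Bee C27-N10, an unexposed nurse, had 7.33, and the other nurses of C27 had 1.18, 1.63, 1.91 and 2.28. These were the only apiary nurses above the forager median of GB49854 in RPM, 2 of 30. C23-N4 was the highest of 30 nurses in 5 of the 6 genes and had rank 4 in GB42310. C27-N10 had rank 2 in GB49854, GB50118, GB43247 and GB55207, rank 3 in GB41339 and rank 26 in GB42310.

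For GB43247, C23-N4 had 11.53 log2 CPM and C27-N10 had 8.73, against group medians of 7.23 in exposed and 7.13 in unexposed nurses. For GB55207 they had 9.20 and 8.18, against medians of 4.44 and 3.73. For GB49854, GB50118 and GB55207 both bees were above the forager median, for GB43247 only C23-N4 was, and for GB41339 neither was. Mblk-1 was at 10.63 log2 CPM in C23-N4 and 10.79 in C27-N10, beside a median of 10.64, and Foxp at 6.88 and 6.90, beside a median of 6.87. In nurse pools 1J7 and 2J7, Mblk-1 was at 10.36 and 10.17 and the median of the 9 nurse pools was 10.15. These values do not measure other tissue, and whether any was present was not tested. Without the 2 bees, 5 of 6 genes were higher in foragers in every apiary colony. The bees were left out for their high levels of these genes, so nothing is read from that count beside the 12.6% of all genes.

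**Figure D2:**
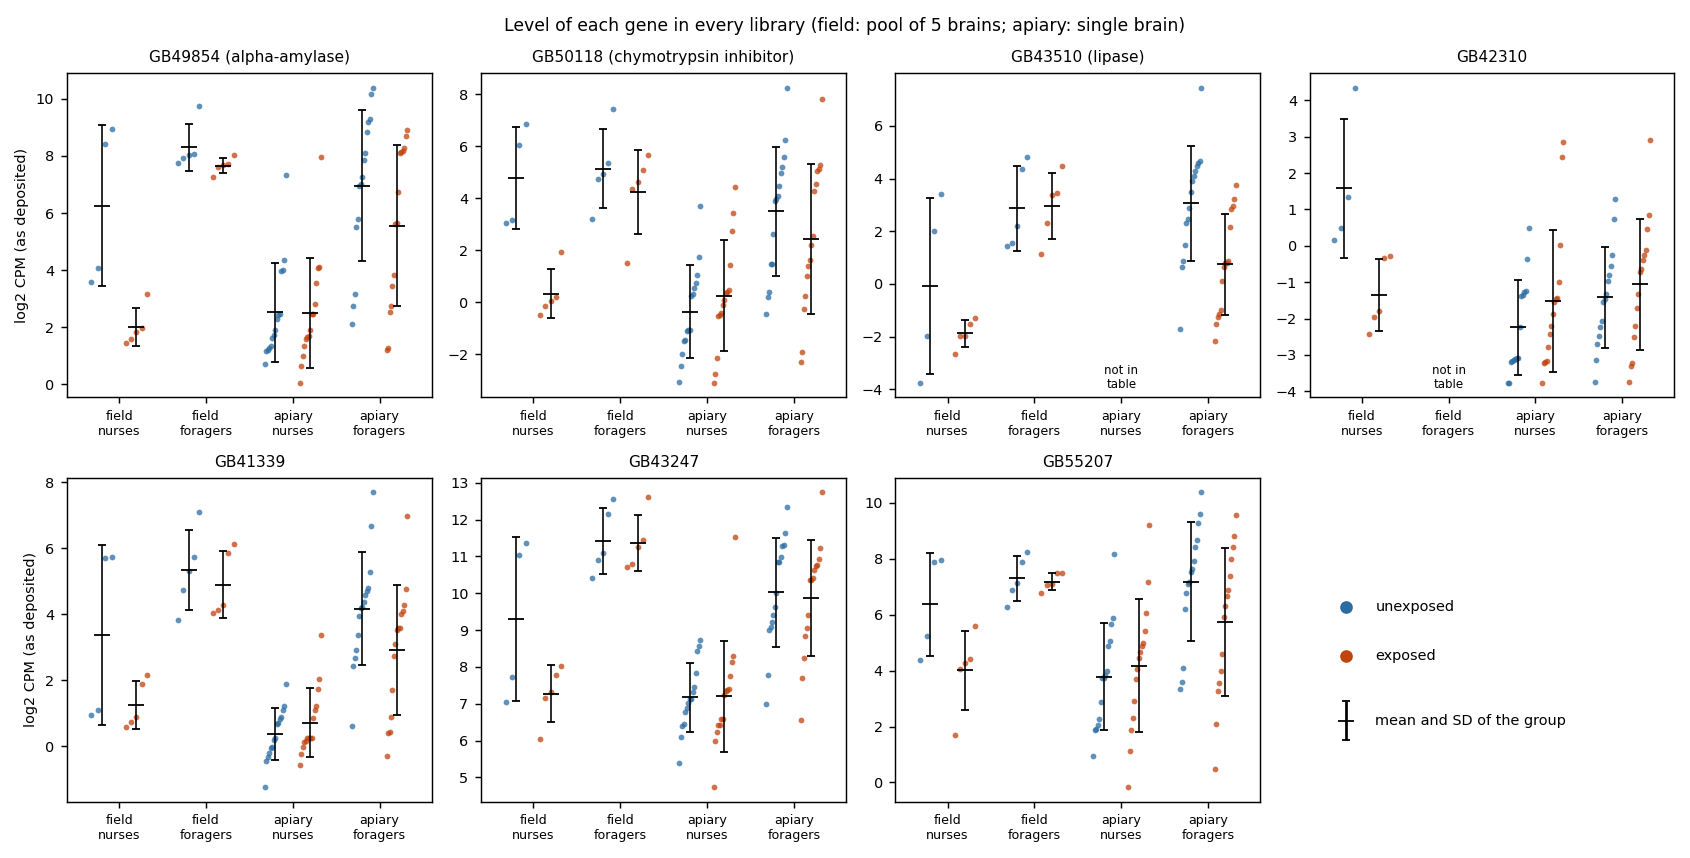
Each point is a library (field, pool of 5 brains; apiary, single brain), the vertical axis is log2 CPM as deposited, and the bar is the mean with the SD of the group, blue for unexposed and red for exposed. Unexposed field nurses split into 2 high and 2 low pools in most panels, and apiary foragers spread over 1.22 to 10.38 log2 CPM of GB49854.

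The field nurse comparison selected the genes, and the levels there are given for what lies behind it. Alpha-amylase (GB49854) was at 3.58, 4.08, 8.42 and 8.94 log2 CPM in the unexposed pools 2J6, 2J10, 2J7 and 1J7. In the exposed pools it was at 1.45, 1.60, 1.85, 1.96 and 3.16. Every unexposed pool thus lay above every exposed pool, and the unexposed pools split into a low and a high pair. The means were 6.26 ± 2.81 (SD, n = 4) in unexposed and 2.01 ± 0.68 (SD, n = 5) in exposed pools, a difference of -4.25.

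The chymotrypsin inhibitor (GB50118) was at 3.06, 3.18, 6.07 and 6.85 log2 CPM in unexposed nurse pools and between -0.48 and 1.95 in exposed ones, a difference of means of -4.47. The lipase (GB43510) was at -3.75 in 2J6, -1.96 in 2J10, 1.99 in 2J7 and 3.40 in 1J7, and between -2.66 and -1.30 in exposed pools, a difference of -1.80 that was -0.64 without 1J7 and -3.03 without 2J6. Of its 2 low unexposed pools, 2J6 with 0 reads was below every exposed pool and 2J10 with 4 reads was among them, at 3 to 9 reads.

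GB41339 was at 0.93, 1.1, 5.72 and 5.74 log2 CPM in unexposed pools and 0.59 to 2.17 in exposed ones. GB43247 was at 7.04, 7.72, 11.04 and 11.37 in unexposed and 6.05 to 8.03 in exposed pools. GB55207 was at 4.37, 5.24, 7.90 and 7.96 in unexposed and 1.70 to 5.59 in exposed pools. In these 3 genes and the lipase only pools 1J7 and 2J7 were above every exposed pool.

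GB42310 followed another order. It was at 4.34 log2 CPM in pool 2J6, where the others were low, and at 1.34, 0.48 and 0.17 in 1J7, 2J7 and 2J10, while the exposed pools lay between -2.43 and -0.29. Its 4 unexposed pools held 557, 64, 32 and 23 reads and its 5 exposed pools 4 to 19 reads. For 3 of the 7 genes (GB49854, GB50118 and GB42310) every unexposed pool was above every exposed pool, and this held for 0.829% of the 10852 genes in the table. Since the genes were picked on this contrast, nothing is read from that count.

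Without pools 1J7 and 2J7, left out after the values were seen, the differences of means became -1.83 for GB49854, -2.80 for GB50118, -3.61 for GB42310, -0.80 for GB55207, -0.11 for GB43247, 0.24 for GB41339 and 0.98 for GB43510. The first 3 still had no overlap between the groups, which leaving out unexposed pools could not have changed. Of the other 4, GB43510 and GB41339 turned to positive values, GB43247 was left at -0.11, and GB55207 kept -0.80 of -2.36. Pools 1J7 and 2J7 were the 2 highest nurse pools in these 4 genes, so leaving them out makes such differences smaller. Their levels of these genes were within the span of the forager pools.

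In field foragers, a caste not used to choose the genes by exposure, no difference passed the test. GB49854 was at 7.75, 7.92, 8.04, 8.07 and 9.76 log2 CPM in unexposed and 7.27, 7.61, 7.67, 7.71 and 8.02 in exposed pools. The groups overlapped, with means of 8.31 ± 0.82 (SD, n = 5) and 7.66 ± 0.27 (SD, n = 5). The log2 difference, exposed minus unexposed, was -0.65 (standard error 0.33, adjusted p = 0.246 from limma over all genes), and -0.29 without pool 2J7, the highest. In the forager pool 2J7 Mblk-1 and Foxp were at 8.96 and 5.72 log2 CPM, their lowest of the 10 forager pools, and whether this bears on its level of GB49854 was not tested.

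The log2 difference in field foragers was -0.89 for GB50118 (standard error 0.83), -0.45 for GB41339 (standard error 0.60) and -0.11 for GB55207 (standard error 0.32). It was -0.07 for GB43247 (standard error 0.45) and 0.08 for GB43510 (standard error 0.77). None of the 6 genes was called at an adjusted p below 0.05, by limma, by limma-voom or by a negative binomial test run on reads recovered from the values, and limma called 0 of all 10976 genes (0%). None had an unadjusted p below 0.05 and lower levels in exposed pools by limma, where 13.5% of all genes did. By the negative binomial test 1 of the 6 genes, GB49854, had an unadjusted p below 0.05, as did 2085 of the 10976 genes. Its adjusted p from that test was 0.105. The test called 0.328% of all genes lower in exposed pools and none of the 6. Pool 2J5 stood out among exposed foragers with 1.49 log2 CPM of GB50118 and 12.60 of GB43247, the lowest and the highest of the 10 pools.

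In apiary foragers the levels of single bees spread widely in both exposure groups. GB49854 ran from 2.13 over a median of 7.27 to 10.38 log2 CPM in the 15 unexposed foragers, and from 1.22 over 5.64 to 8.92 in the 15 exposed ones. Exposed foragers of C21 were at 1.22, 2.54, 2.74, 6.73 and 8.11, and those of C23 at 1.28, 3.45, 3.84, 5.64 and 8.12. Exposed foragers of C28 were at 5.60, 8.19, 8.28, 8.70 and 8.92, close to the unexposed colony C27 at 5.79, 6.96, 7.27, 8.10 and 8.84. The low bees were therefore found in both exposure groups, and 1 of the exposed colonies had only 1 bee below 8.

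The log2 difference of GB49854, exposed minus unexposed, was -1.41 in apiary foragers, with a standard error of 0.94 (limma, adjusted p = 0.636). It was -1.45 for GB55207 (standard error 0.83, adjusted p = 0.571), -1.26 for GB41339 (standard error 0.64, adjusted p = 0.539) and -1.05 for GB50118 (standard error 0.93, adjusted p = 0.720). GB43247 at -0.16 (standard error 0.53) and GB42310 at 0.35 (standard error 0.56) were close to 0. Limma called 0 of the 7 genes, and 0.00879% of the 11381 genes of the table, a single gene. Of the 7 genes, 1 had an unadjusted p below 0.05 and lower levels in exposed foragers, as did 4.82% of all genes.

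That gene was the lipase GB43510. Its levels were 2.89, 3.92, 4.29, 4.47 and 4.58 log2 CPM in C25, -1.71, 1.48, 2.47, 3.5 and 7.44 in C26, and 0.64, 0.86, 2.32, 4.09 and 4.67 in C27, the unexposed colonies. The exposed foragers were at -2.17, -1.51, -1.0, 0.64 and 0.78 in C21, -1.26, -1.13, 0.10, 0.81 and 2.17 in C23, and 0.86, 2.84, 2.94, 3.24 and 3.75 in C28. Colonies C21 and C23 were thus low, and C28 lay within the span of the unexposed colonies.

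Over all bees the mean of GB43510 was 3.06 ± 2.18 (SD, n = 15) for unexposed foragers. The exposed foragers had a mean of 0.74 ± 1.91 (SD, n = 15). The log2 difference was -2.32 (standard error 0.71, p = 0.00259 and adjusted p = 0.279 from limma, so not called). The same negative binomial test gave -2.70 with an adjusted p = 0.00897 and called it, as it did 0.0703% of the genes in that direction. The study, which used edgeR on counts with bees as replicates, also lists this gene as lower in exposed apiary foragers, with a log fold change of -2.70. With the mean of each colony as the unit, the difference had an unadjusted p = 0.0317 and an adjusted p = 0.884 from limma. Bees of a colony shared their exposure, so the 30 bees are 6 colonies for that comparison. In field foragers the log2 difference of GB43510 was 0.08, as given above, and the difference between the 2 contrasts was not tested.

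Sequencing runs differed between the groups. Runs and lanes were read from the labels of the libraries and are not described in the study. The first run is the one with the lower number in its label, and the order of the runs in time is not given. Of the 15 exposed apiary foragers 7 were in the first run, with no unexposed forager, and in the second run alone the difference of GB43510 was -2.89 (adjusted p = 0.125 from limma). Of the apiary nurses, 6 exposed and 1 unexposed were in the first run. The unexposed one was C27-N10, described above for its high levels, while the other nurses of C27 were in the second run. Whether the run bears on the levels of C27-N10 was not tested. Only 1 of the 8 sequencing lanes of the foragers held both exposure groups, too few for values within lanes.

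**Figure D3:**
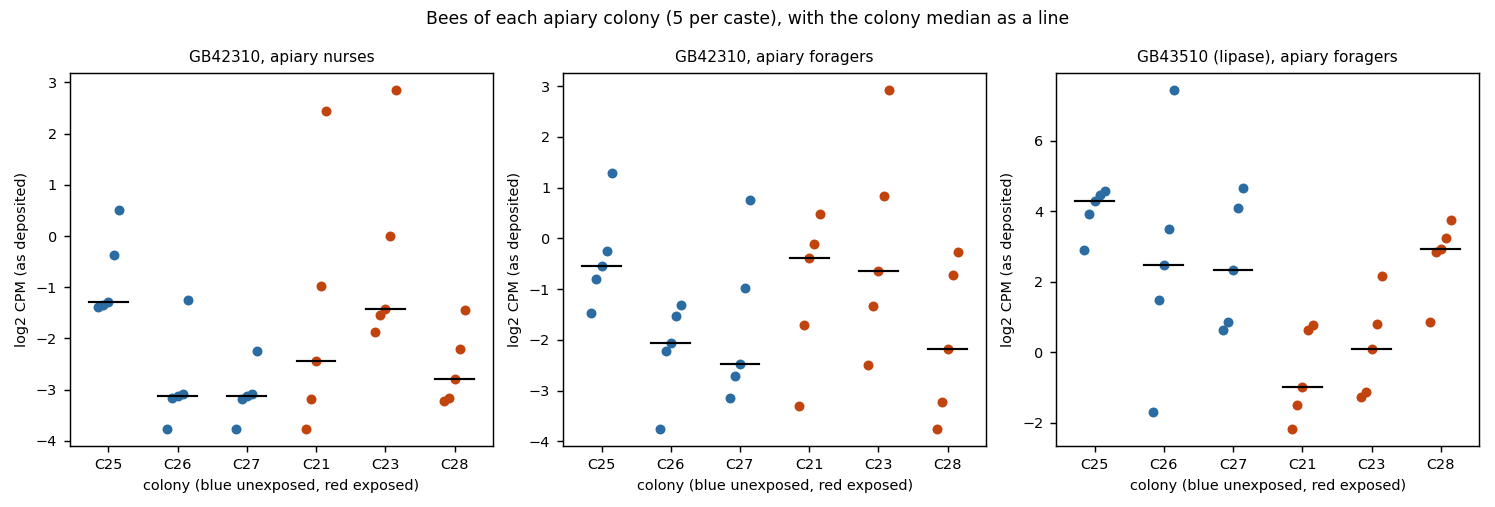
Each point is an apiary bee, the horizontal axis the colony (blue unexposed, red exposed), the vertical axis log2 CPM as deposited, and the line the median of 5 bees. The lipase GB43510 was low in foragers of C21 and C23 but not of C28. GB42310 had its 3 highest colony medians in C21, C23 and C25 in both castes. In nurses the median of C21 was 3 reads and that of C28 was 2 reads, so that order rests on few reads.

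In apiary nurses no difference passed the test for the 6 genes listed there. GB49854 ran from 0.73 over a median of 1.91 to 7.33 log2 CPM in unexposed nurses and from 0.06 over 1.91 to 7.97 in exposed nurses. The log2 difference was -0.04 for GB49854 (standard error 0.64), 0.03 for GB43247 (standard error 0.44), 0.36 for GB41339 (standard error 0.33), 0.39 for GB55207 (standard error 0.75), 0.61 for GB50118 (standard error 0.69) and 0.73 for GB42310 (standard error 0.59). Limma called none of the 6, with adjusted p between 0.572 and 0.985, and 0.0532% of the 11271 genes. By limma 1712 of all genes had an unadjusted p below 0.05, and by the negative binomial test 60 were called. None of the 6 was lower in exposed nurses at an unadjusted p below 0.05, against 6.24% of all genes, and none was called by limma-voom or by the negative binomial test, which called 0.195% of all genes lower. The negative binomial differences were larger and higher in exposed nurses for GB42310, at 2.03 (adjusted p = 0.26 over all genes), and GB43247, at 0.91 (adjusted p = 0.486). These were 2 of 6 with an unadjusted p below 0.05 in that test, beside 1123 of the 11271 genes. Single bees weighed on both values. Bee C23-N4 held 75551 reads of GB43247, where the median of exposed nurses was 2598. Bees C23-N3 and C21-N3 held 161 and 123 reads of GB42310, where that median was 5.

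The exposure contrasts of the 2 apiary castes were compared directly over the 11151 genes in both tables. The contrast of foragers minus that of nurses was -1.84 for GB55207 (standard error 1.15), -1.66 for GB50118 (standard error 1.19), -1.62 for GB41339 (standard error 0.73), -1.37 for GB49854 (standard error 1.17), -0.38 for GB42310 (standard error 0.83) and -0.19 for GB43247 (standard error 0.70). None of the 6 differed between castes at an adjusted p below 0.05 in limma, and neither did any of the 11151 genes, a background of 0%. With the castes paired by colony (3 colonies against 3, a fit added after seeing the data), limma again called 0 of the 6 and 0 of all genes, and GB41339 had an unadjusted p = 0.0236 and an adjusted p = 0.895 (limma). In the fit on bees GB41339 had an unadjusted p = 0.0317 and an adjusted p = 0.303, as 1581 of all genes had an unadjusted p below 0.05.

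Colonies of the same exposure group were compared next, with the bees of a colony as replicates. In apiary nurses, 31.9% of all genes differed between such colonies at an adjusted p below 0.05 in limma's F test, but 0 of the 6 genes did. Of the 6 genes 1 had an unadjusted p below 0.05, against 45.2% of all genes, and limma-voom called 0 of them. For the other 5 genes the adjusted p was between 0.364 and 0.955. The SD of bees within colonies was 1.89 for GB49854, 2.09 for GB50118 and 2.30 for GB55207, beside 1.80, 1.95 and 2.13 over all 30 nurses.

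The gene nearest to the threshold was GB42310 (F = 3.62, adjusted p = 0.0531 from limma). Its nurses were at -1.39, -1.34, -1.28, -0.37 and 0.50 log2 CPM in C25, but at -3.76, -3.16, -3.12, -3.09 and -1.24 in C26 and -3.76, -3.19, -3.13, -3.09 and -2.24 in C27. The C25 nurses had 9 to 38 reads and those of C27 had 0 to 5. In the exposed colonies the medians were -1.42 in C23, -2.43 in C21 and -2.79 in C28, and 1 bee in each of C21 and C23 reached 2.45 and 2.85. Without colony C21 the gene passed the threshold (F = 7.87, adjusted p = 0.0108 from limma). In that fit 3031 of all 11271 genes passed it, so nothing particular to this gene is read from the call.

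Foragers of the same colonies held the same 3 at the top for GB42310. Among nurses, though, the third place of C21 was a median of 3 reads beside 2 reads in C28. The C21 nurses ran from 0 to 123 reads. The forager medians were -0.39 log2 CPM in C21, -0.54 in C25 and -0.64 in C23, above -2.07 in C26, -2.19 in C28 and -2.48 in C27. These are 2 exposed and 1 unexposed colony above 1 exposed and 2 unexposed ones. The forager differences did not pass the test (adjusted p = 0.441 from limma).

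In apiary foragers 1.2% of all genes differed between colonies of the same exposure group and 0 of the 7 genes did. GB49854 (F = 3.00, adjusted p = 0.303) and GB43510 (F = 3.29, adjusted p = 0.266) had unadjusted p-values below 0.05, 2 of 7 genes, against 14.5% of all genes, and limma-voom called 0. The median of GB49854 was 2.74 in C21 and 3.84 in C23 against 8.28 in C28 among the exposed colonies, and 5.52 in C26 against 7.27 in C27 and 9.20 in C25 among the unexposed ones.

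The spread of these genes over single bees was wide for this tissue. The SD of GB49854 over the 30 apiary foragers was 2.78 log2 CPM, the 20th largest of 11381 genes, where the median gene had 0.22. The SDs of GB50118, GB55207, GB43510 and GB41339 were 2.70, 2.47, 2.33 and 1.92, and those of GB42310 and GB43247 were 1.59 and 1.5. In apiary nurses the SDs ran from 0.92 for GB41339 to 2.13 for GB55207, where the median gene had 0.23. In field forager pools the SDs ran from 0.57 for GB55207 and 0.67 for GB49854 to 1.36 for GB43510 and 1.55 for GB50118, where the median gene had 0.21. In field nurse pools they ran from 1.82 for GB43247 to 2.87 for GB49854.

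**Figure D4:**
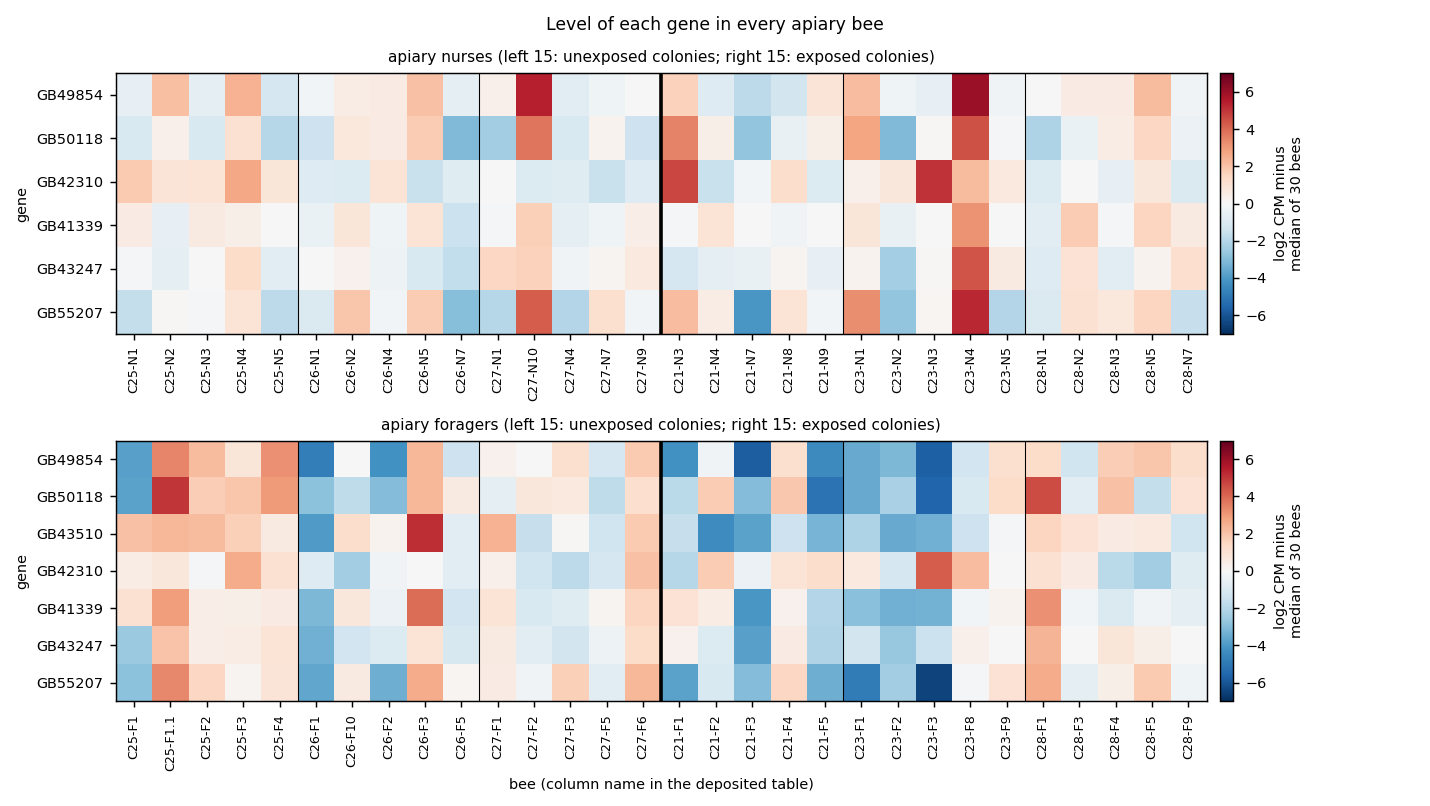
Colour shows log2 CPM minus the median of the 30 bees for each gene (rows) in each apiary bee (columns, by colony, unexposed left of the thick line), nurses above and foragers below. Single bees such as C23-N4 among nurses and C25-F1.1 among foragers were high, and C26-F1 and C21-F3 low, in several genes at once, while GB42310 had its own pattern.

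The rows of single bees show what the genes shared. Across the 30 apiary foragers the median Pearson correlation over the 21 pairs of genes was 0.67. The 15 pairs without GB42310 ran from 0.51 to 0.93 with a median of 0.72, and the 6 pairs with GB42310 from -0.16 to 0.16. These correlations are a description, because the genes were picked as varying together, and bees of a colony are not independent. With values centred on the mean of each colony, the median of the 21 pairs was 0.61.

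Alpha-amylase (GB49854), the chymotrypsin inhibitor (GB50118) and GB55207 were the closest, with r of 0.93 for GB49854 and GB55207, 0.87 for GB49854 and GB50118 and 0.85 for GB50118 and GB55207. The lipase GB43510 had its highest r, 0.79, with GB41339, and its lowest outside GB42310, 0.51, with GB50118. The unexposed forager of column C25-F1 shows this in its levels. It had 4.29 log2 CPM of GB43510 and 4.81 of GB41339, rank 5 of 30 foragers in both, but 3.17 of GB49854 and -0.47 of GB50118, ranks 24 and 28. The exposed bee C23-F3 had rank 29 in GB49854 and rank 30 in GB50118 and GB55207, but was the highest in GB42310, with 2.92 log2 CPM.

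Nurses showed the same closeness in part. Over the 30 apiary nurses the median r of the 15 pairs was 0.58, and the 10 pairs without GB42310 ran from 0.48 to 0.91. The highest was again among the same genes, 0.91 for GB50118 and GB55207, 0.81 for GB49854 and GB50118 and 0.80 for GB49854 and GB55207. Without bees C23-N4 and C27-N10 the median r of the 15 pairs fell to 0.29, though the highest pair kept 0.86. By rank (Spearman) the nurse median was 0.34 and the forager median 0.65. The nurse median thus moved with 2 of the 30 bees.

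**Figure D5:**
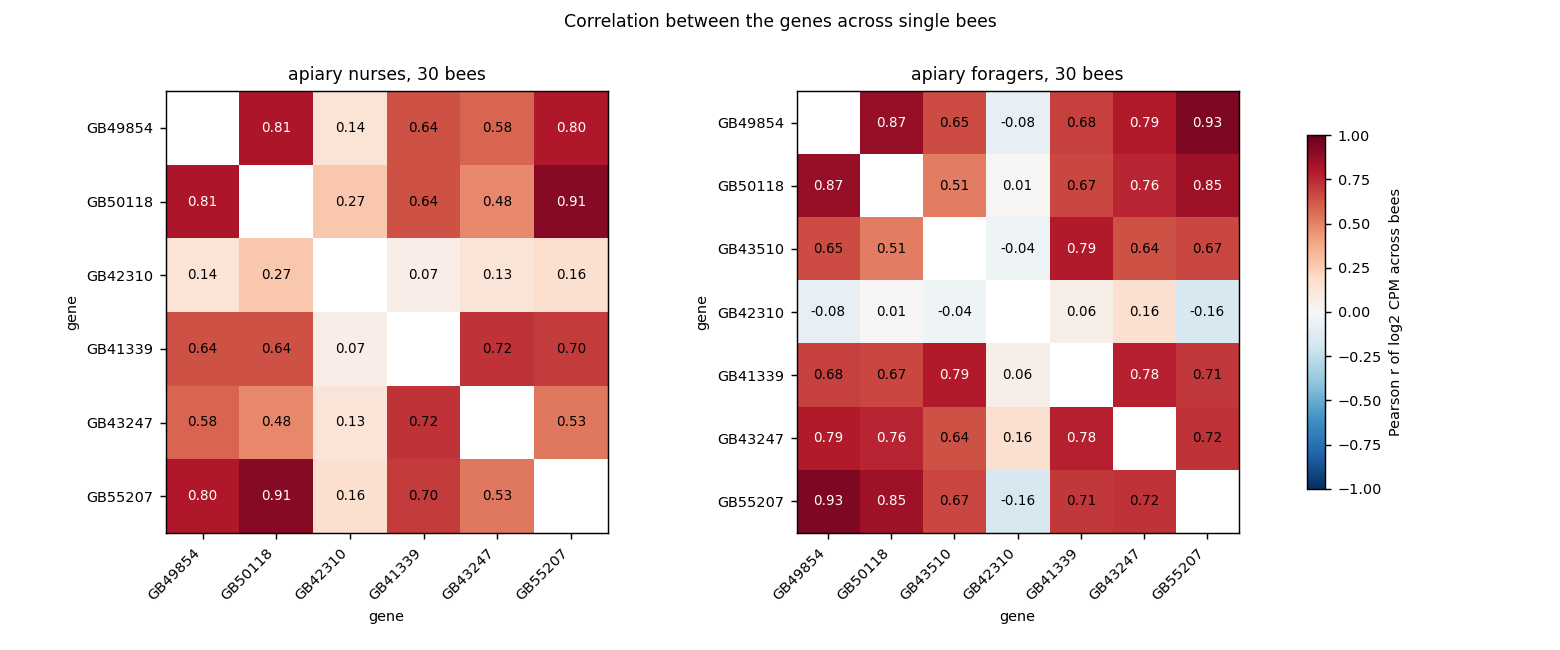
Each cell is the Pearson correlation of log2 CPM between a pair of genes over 30 apiary nurses (left) or 30 apiary foragers (right), from -1 (blue) to 1 (red). Cells with GB42310 lie between -0.16 and 0.27, and all others between 0.48 and 0.93.

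Depth was set beside these levels as well. Over the foragers the correlation of the genes with the reads in genes per library lay between 0.02 for GB49854 and 0.26 for GB41339, and over the nurses between -0.29 for GB50118 and 0.09 for GB41339. The mean r of Mblk-1 with the genes was 0.10 in nurses and -0.01 in foragers. In the field pools, the 15 pairs without GB42310 had a median r of 0.87 over 9 nurse pools, on which the genes were selected, and 0.55 over 10 forager pools. In the forager pools the pairs ran from -0.19 to 0.88, and GB50118 had r of -0.19 with GB43247, -0.09 with GB43510 and 0.05 with GB41339.

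The genes other than GB42310 stood near the top of each apiary table when all genes were ranked by their mean r with the others. They were picked in part as varying together, so these ranks restate that choice and are a description. In apiary foragers the rank among 11381 genes was 1 for GB43247, 2 for GB49854, 6 for GB55207, 7 for GB41339, 8 for GB50118 and 18 for GB43510, while GB42310 had rank 5838 with a mean r of -0.01. In apiary nurses the rank among 11271 genes was 1 for GB50118, 3 for GB55207, 4 for GB49854, 6 for GB41339 and 15 for GB43247, while GB42310 had rank 1798 with a mean r of 0.16. These nurse ranks used all 30 bees. Without C23-N4 and C27-N10 the nurse pairs without GB42310 had a median r of 0.46, from 0.13 to 0.86, in place of 0.67. GB42310 was thus not seen among the genes that varied together over single bees. Its median was 4 reads in nurses and 9.5 in foragers, and so few reads limit what its r can show.

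Outside the set, 15 genes in foragers and 6 in nurses had a mean r of at least 0.5 with the genes over 30 bees, and the median gene had 0.00 in nurses. GB47975 and GB41228 were among the 10 nearest in both castes, with a mean r of 0.63 and 0.62 in foragers and 0.62 and 0.59 in nurses. They were the only 2 of the 10 that the castes shared, and no table used here names them. Kr-h1 (GB43022) was among the 10 nearest in nurses, at rank 13 of 11271 over all 30 bees, but not in foragers.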

How the data were processed

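Reads were trimmed by the authors with Trimmomatic 0.36 (study methods and labels), aligned and counted with STAR on the amel 4.5 assembly, filtered for low counts, and scaled per table by TMM with edgeR in R 3.6.3. The deposited unit is log2 CPM. Reads were recovered from the steps of these values, and 100% of those below 20000 reads were whole within 0.1. Groups were compared within a table with limma 3.58.1 (R 4.3.3, statmod 1.5.0; mean-variance trend, two-sided, Benjamini-Hochberg over all genes, threshold 0.05). Alternatives were limma-voom and a negative binomial likelihood ratio test on recovered reads, log2(CPM + 1), a mean of at least 1 CPM, equal medians, no trend, colony blocks or means, 1 run, and leaving out colonies or pools; the scripts were tested on simulated data (Python 3.11.15, numpy 2.4.6, pandas 2.3.3, matplotlib 3.10.9). The 7 genes and the lists were chosen with earlier results of these data known. Nurses and foragers of a colony were paired by its label; their colony means deviated together (r from 0.23 to 0.46 across genes in each of 6 colonies). Genes given by name or ID were these 7, Mblk-1, Foxp, Kr-h1 and, per apiary caste, at most 2 other genes of the 10 with the highest mean r. Names came from the study; the reference table matched 0 of 11525 IDs, so lists by name were not used. Columns C25-F1, C25-F1.1 and C27-F1 were assigned to their group only. Labels name no separate cultures, and p-values measure the spread between bees or pools.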

Additional observations from a re-analysis of the deposited data

Results flagged for a closer look

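Each gene was looked at in each field group and in the 5 bees of each colony and caste, 104 combinations of a gene and a group that share libraries. In 8 of them a library was far from the others, and chance alone gives about 1 in 20. All values are log2 CPM. For GB49854, nurse C27-N10 had 7.33 while the other 4 nurses of its colony had 1.18 to 2.28, the field forager pool 2J7 had 9.76 while the other unexposed pools had 7.75 to 8.07, and forager C28-F3 had 5.60 while the others of C28 had 8.19 to 8.92. For GB41339, forager C28-F1 had 6.97 beside 2.74 to 3.58, forager C25-F1.1 had 6.69 beside 4.19 to 4.81, and nurse C21-N4 had 1.22 beside -0.02 to 0.25. For GB50118, the exposed nurse pool 2J2 had 1.95 beside -0.48 to 0.21. For GB42310, nurse C26-N4 had -1.24 beside -3.76 to -3.09.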

How the results depend on the processing

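No call on these genes changed with the pseudocount, the filter, equal medians, the variance trend, limma-voom, colony blocks or means, or the second run alone. The negative binomial test called 1 of 7 genes in apiary foragers, where it called 49 of all 11381. Leaving out colony C21 called 1 of 6 in the nurses' colony comparison, where 3031 of all 11271 genes were called. Counts in these comparisons thus ran from 0 to 1. Directions of small, uncalled differences turned. In apiary nurses GB49854 had 0.42 by the negative binomial test and 0.45 in the second run alone, and ran from -0.45 to 0.40 with a colony left out; GB43247 had -0.17 without bees C23-N4 and C27-N10 and ran from -0.28 to 0.37. In field foragers GB43510 had -0.01 by limma-voom and -0.22 by the negative binomial test and ran from -0.30 to 0.57 with a pool left out; in the second run alone GB43247 had 0.11 and GB55207 0.04, and they ran from -0.38 to 0.22 and from -0.36 to 0.13. With a colony left out, apiary forager differences ran from -0.77 to 0.19 for GB43247 and from -0.11 to 0.88 for GB42310, and the difference of the castes' contrasts for GB43247 ran from -0.75 to 0.34. In field nurses without pools 1J7 and 2J7, GB43510 had 0.98, GB41339 0.24, GB43247 -0.11, GB49854 -1.83 and GB50118 -2.80, and 6 of 6 genes were higher in field foragers in every colony, in place of 0; leaving out these libraries, and GB42310, was chosen after seeing the data. The median correlation in apiary nurses (0.58) was 0.34 by Spearman, 0.46 in unexposed bees alone, 0.29 without C23-N4 and C27-N10, and 0.34 to 0.62 with a colony left out. Counts over all genes moved more: limma and the negative binomial test called 1 and 49 genes in apiary foragers (23 in the second run, 68 without C23), 6 and 60 in apiary nurses (0 with colony as a block, 157 without C23), and 0 and 294 in field foragers (2921 without 2J1). The difference of the castes' contrasts called 484 genes without C23 in place of 0, and the colony comparison 899 without C25 in place of 3593 in nurses and 40 in the second run in place of 137 in foragers. The cause of these shifts was not tested. Pairing the castes by colony (replicate block) called 0 of 6 genes for the difference of the castes' contrasts, as without it. For exposure no paired analysis was possible because each colony belongs to 1 exposure group. Genes with few reads, such as GB42310 in nurses with a median of 4, limit what can be seen at this depth.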
